A study of Rattus norvegicus with 20 samples.

Results

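The genes described here are 10 genes of the endoplasmic reticulum (ER) folding machinery and of the unfolded protein response: the protein disulfide isomerases Pdia3, Pdia4 and Pdia6, the chaperones Hspa5, Hsp90b1, Calr and Canx, and the transcription factors Xbp1, Atf4 and Ddit3. Their levels were read in mammary adenocarcinomas that arose after irradiation of female Sprague-Dawley (Jcl:SD) rats, and in unaffected mammary tissue. Members were found by matching the RefSeq accession that the scanner files give for each probe that was not a control. Of the 10 genes, 9 had a probe (10 of 41012 probes, 2 of them for Hsp90b1, and 9 of 36043 genes tested), and no probe matched Xbp1. Of the 36043 entries called genes here, 8662 had a gene symbol. The rest were kept under the name that the scanner files give for the probe. The set was put forward with the obesity-prone cancers in view, where Pdia4 was low. Levels in obesity-prone cancers against other cancers are therefore given as a description with no test.

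All rats had received 4 Gy of whole-body Cs-137 gamma rays at 7 weeks of age, a treatment that the labels give for normal tissue as well as for cancers. Obesity-prone (OP) and obesity-resistant (OR) rats had been separated by body weight at that age on food with 45 kcal% fat, and lean controls (LC) ate food with 10 kcal% fat. The animals were followed for 30 weeks. The 20 arrays, 1 per sample, held 12 adenocarcinomas (6 OP, 3 OR and 3 LC), picked by the submitters for even histology free of necrosis and of heavy infiltrate, and 8 normal tissues (3 OP, 2 OR and 3 LC). Whether each sample was a different animal is not stated, and the p-values then rest on the variation among these arrays alone.

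The lumen of the ER is where secreted and membrane proteins fold. Hspa5 (BiP) binds unfolded chains there and also restrains the stress sensors of the ER membrane, while Hsp90b1 (Grp94) acts later on a narrower set of clients. Disulfide isomerases form and rearrange disulfide bonds, and Pdia3 does so for glycoproteins held by the lectin chaperones calnexin (Canx) and calreticulin (Calr). When unfolded proteins accumulate, the sensor Ern1 (IRE1) splices Xbp1 messenger RNA, Atf6 is cleaved to a transcription factor, and the kinase Eif2ak3 (PERK) slows translation while favouring that of Atf4, which in turn raises Ddit3 (CHOP). Atf6 and Xbp1 act through a promoter element called ERSE, spelled CCAAT and CCACG with 9 free bases between them. Splicing of Xbp1 and translation of Atf4 are not measured by such arrays.

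The promoters are shown because ERSE links the chaperone members of the set. RefSeq promoter windows of the GRCr8 assembly were found for 8 of the 10 genes (none was given for Pdia3 and Pdia6), and the 250 bases before the annotated start were searched on both strands. Of these 8 windows, 5 held ERSE, in Hspa5, Hsp90b1, Calr, Canx and Xbp1, against 22 of 33469 rat promoter windows of the same length (0.0657%). The 22 include these 5. The members were listed as genes of the response that acts through ERSE, so these shares are a description and no test. Hsp90b1 held 2. The matches, read in the direction of the motif and with the 9 free bases in lower case, were as follows.
Hspa5: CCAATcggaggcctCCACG
Hsp90b1, farther from the start: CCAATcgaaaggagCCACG
Hsp90b1, nearer the start: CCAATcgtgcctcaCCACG
Calr: CCAATcagggtcgaCCACG
Canx: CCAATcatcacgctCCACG
Xbp1: CCAATcgcagacggCCACG
The first base of the match, counted on the gene's strand, lay 43 bases before the start in Hspa5, 65 in Xbp1, 176 and 72 in Hsp90b1, 230 in Canx and 232 in Calr. In Calr and in the nearer match of Hsp90b1 the motif ran against the gene's strand. Other promoters with ERSE included 3 genes of the folding list used below (Creld2, Dnajc3 and Ero1b) and the degradation gene Derl3.

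Pdia4, Atf4 and Ddit3 held no ERSE in this window. None of the 8 windows held the shorter relative ERSE-II (ATTGG and CCACG with 1 free base between them, 0.0418% of promoters) or TGATGCAAT, the site class that Atf4 binds (0.161%), and Hspa5 alone held TGACGTG, the core of the Xbp1-binding UPRE (1.54%). The letters CCAAT, which are part of ERSE, occurred 3 times in Pdia4 and in 34% of promoters. The whole windows of Hspa5, Hsp90b1 and Pdia4 follow, with ERSE in capitals and all other bases in lower case. They lie at chr3:38452766-38453015 on the plus strand, chr7:23012294-23012543 on the minus strand and chr4:78153192-78153441 on the minus strand.
Hspa5: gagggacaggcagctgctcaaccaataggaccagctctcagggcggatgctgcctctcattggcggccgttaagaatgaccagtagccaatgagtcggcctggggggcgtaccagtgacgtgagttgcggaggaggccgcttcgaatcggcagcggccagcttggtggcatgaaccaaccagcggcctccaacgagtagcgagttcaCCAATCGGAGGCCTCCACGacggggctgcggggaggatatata
Hsp90b1: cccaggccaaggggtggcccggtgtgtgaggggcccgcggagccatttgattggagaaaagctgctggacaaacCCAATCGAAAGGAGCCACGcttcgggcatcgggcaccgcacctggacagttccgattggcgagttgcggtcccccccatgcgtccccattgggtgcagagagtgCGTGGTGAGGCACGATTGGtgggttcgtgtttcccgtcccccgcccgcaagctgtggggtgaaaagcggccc
Pdia4: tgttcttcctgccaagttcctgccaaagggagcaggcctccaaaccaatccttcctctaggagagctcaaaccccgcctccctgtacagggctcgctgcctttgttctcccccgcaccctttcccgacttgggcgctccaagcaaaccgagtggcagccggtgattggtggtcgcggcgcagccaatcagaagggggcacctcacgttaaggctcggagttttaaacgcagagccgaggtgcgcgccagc
A match is a description of the letters, and the arrays hold no measurement of binding at these sites.

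Between 61.3% and 79.3% of probes were well above background in cancers, and between 87.7% and 97.7% in normal tissue. The 9 measured genes were well above background on all 20 arrays. Cell type markers moved with tissue. Of 13 luminal epithelium markers 12 were higher in cancers and none lower, and the list's mean log2 level ran from 12.09 to 12.93 in cancers and from 9.69 to 11.64 in normal tissue. All 15 adipocyte markers were lower, with a list mean of 7.29 to 7.71 against 11.14 to 12.06, and 2 of them were above background on no cancer array. Proliferation genes (11 of 11) were higher (8.82 to 10.52 against 7.42 to 9.41). Lower were 6 of 8 fibroblast, 4 of 4 endothelial and 4 of 10 macrophage markers, and the rest of these lists did not pass the test. Of 10 milk genes 1 was higher and 2 lower, of 11 T and NK cell markers 1 and 1, and of 4 B and plasma cell markers 1 and 0. LC normal tissue 3 stood apart by its T and NK cell list mean (10.88, the other normal tissues 7.72 to 8.16), and LC normal tissue 1 had the lowest luminal mean (9.69). The part of these cell types in the results below was not tested.

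Most ER folding genes of the set were higher in cancer than in normal mammary tissue. On the main scale, 6 of the 9 measured genes rose (Pdia3, Pdia4, Pdia6, Hspa5, Hsp90b1 and Canx) and 3 fell (Calr, Atf4 and Ddit3), with a median difference of 0.73 on the log2 scale. Over all genes tested the median was -0.03 and 62.4% changed (29.0% rose and 33.5% fell), so the share of members that fell is near the background. The scale is normalized log2 intensity, differences set the average of the 3 cancer groups, equally weighted, against that of the 3 normal groups, and a change is called at an adjusted p under 0.05 in limma over all 36043 genes. In pieces of tissue, a difference in the number of cells of a type and a difference in RNA per cell cannot be told apart. All 8 normal tissues lay on slides 1 to 3 and scan day 2. The 8 cancers of scan day 1 lay on slides 4 and 5, which held no normal tissue. For those cancers tissue cannot be told apart from slide or scan day.

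Among the disulfide isomerases, Pdia3 (ERp57), the partner of the lectin chaperones, changed most. Its log2 level had a lowest value of 11.72, a median of 12.54 and a highest of 13.03 in the 12 cancers, and 10.79, 11.04 and 11.38 in the 8 normal tissues. No cancer overlapped a normal tissue (8.63% of all genes were higher without overlap). The difference was 1.51 (95% confidence interval 1.26 to 1.75), a 2.84-fold rise (adjusted p = 3.76e-08). Within slides 1, 2 and 3, the slides with both tissues, it was 1.33, 0.72 and 1.23, and with slide as a block it was 1.19. All of these lay below the pooled difference. Slide 1 held 2 cancers and 2 normal tissues, and slides 2 and 3 held 1 cancer and 3 normal tissues each, from different obesity groups. The within-slide values of the genes below rest on the same few arrays.

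Pdia6 (P5), another disulfide isomerase of the lumen, ran from 14.34 through a median of 14.87 to 15.16 in cancers and from 13.91 through 13.998 to 14.25 in normal tissue. Here too the tissues did not overlap, and the rise was 0.87 (0.70 to 1.04, 1.83-fold, adjusted p = 1.65e-07). Within slides 1, 2 and 3 it was 0.52, 0.47 and 1.13.

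Pdia4 (ERp72), an isomerase with an extra catalytic domain, read 10.00, 9.65, 9.81, 10.08, 10.04 and 9.58 in OP cancers 1 to 6. It read 10.53, 10.49 and 10.37 in OR cancers and 10.36, 10.21 and 10.49 in LC cancers. Normal tissues read 9.03, 9.65 and 9.57 in OP, 9.57 and 9.34 in OR, and 9.27, 9.83 and 9.27 in LC. The OP cancers thus lay between the other cancers and the normal tissues, and 3 of them were within the range of normal tissue. The rise over all groups was 0.78 (0.56 to 1.01, 1.72-fold, adjusted p = 9.14e-06). Within slides 1 and 3 it was 1.03 and 1.13. Within slide 2, which held OP cancer 2 and 3 normal tissues, it was -0.03.

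Among the chaperones, Hspa5, the main Hsp70 protein of the ER, read 14.80, 14.70, 14.36, 14.47, 14.29 and 14.58 in OP cancers 1 to 6. It read 14.99, 15.04 and 14.89 in OR cancers and 15.07, 14.40 and 15.12 in LC cancers, so LC cancer 2 stood with the OP cancers. Normal tissues read 14.03, 14.30 and 13.91 in OP, 14.11 and 13.97 in OR, and 14.47, 13.84 and 13.91 in LC. The highest, LC normal tissue 1, had the lowest luminal marker mean, and it and OP normal tissue 2 reached into the range of cancers. The rise was 0.73 (0.49 to 0.96, 1.65-fold, adjusted p = 3.79e-05). Within slides 1, 2 and 3 it was 0.68, 0.62 and 1.06, all in the pooled direction.

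**Figure D1:**
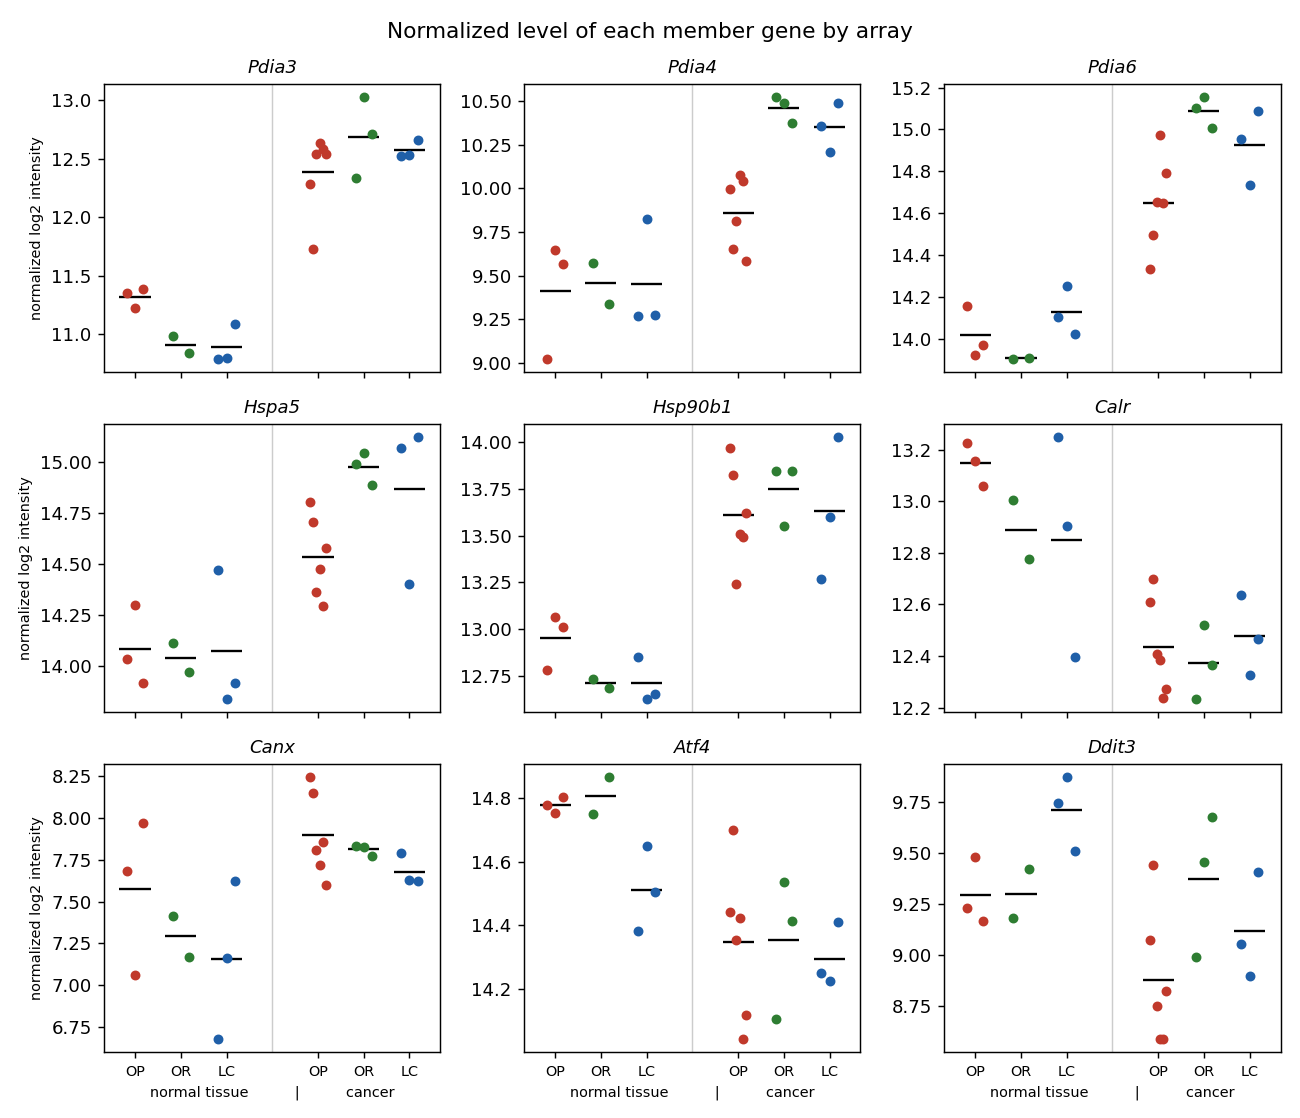
Normalized log2 intensity of the 9 measured genes on each of the 20 arrays, by tissue and obesity group; points are samples, bars are group means, and each panel has its own vertical scale that does not start at 0. Pdia3, Pdia6 and Hsp90b1 show no overlap between tissues, and the OP cancers (9.58 to 10.08) lie below the other cancers (10.21 to 10.53) for Pdia4.

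Hsp90b1, the Hsp90 protein of the ER, had 2 probes of the same accession that disagreed. The brighter probe, used in the counts, ran from 13.24 through a median of 13.61 to 14.03 in cancers and from 12.63 through 12.76 to 13.06 in normal tissue, with no overlap. Its rise was 0.87 (0.65 to 1.097, 1.83-fold, adjusted p = 3.65e-06). The dimmer probe ran from 9.44 through 9.92 to 10.63 in cancers and from 9.80 through 10.91 to 11.27 in normal tissue. It fell by 0.90 (-1.23 to -0.57, adjusted p = 9.73e-05), and the mean of both probes differed by -0.015 (adjusted p = 0.918). Both probes were called within each obesity group, in opposite directions, so the direction for Hsp90b1 depends on the probe and the rise is uncertain. Without Hsp90b1, 5 of the other 8 genes rose.

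The lectin chaperones went opposite ways on the main scale. Calr, the soluble lectin of the lumen, ran from 12.24 through 12.40 to 12.70 in cancers and from 12.39 through 13.03 to 13.25 in normal tissue. LC normal tissue 3, the sample with the high T cell markers, was the lowest normal tissue and the only one inside the range of cancers. Calr fell by 0.53 (-0.75 to -0.32, adjusted p = 0.000226), to 0.69 of its level in normal tissue. The within-slide differences were -0.61, -0.32 and -0.51.

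Canx, the membrane-bound lectin, ran from 7.60 through 7.80 to 8.25 in cancers and from 6.68 through 7.29 to 7.97 in normal tissue, and the tissues overlapped. Its rise of 0.46 (0.17 to 0.74, adjusted p = 0.00733) depended on scaling. It stood at -0.34 (adjusted p = 0.0477) when arrays were set by their 75th percentile of processed signal, at -0.30 (0.054) with the same scaling after normexp, and at -0.33 (0.0501) in the authors' value table. No direction for Canx held across scalings.

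Neither of the transcription factors measured, Atf4 and Ddit3, rose. Atf4, the effector of the PERK arm, ran from 14.04 through 14.38 to 14.70 in cancers and from 14.38 through 14.75 to 14.87 in normal tissue. It fell by 0.37 (-0.54 to -0.19, adjusted p = 0.00115), with within-slide values of -0.23, -0.02 and -0.62. With 75th-percentile scaling the difference was -0.37 (adjusted p = 0.0698), so the call was lost while the size was kept. Ddit3, the target of Atf4 tied to cell death, ran from 8.59 through 9.02 to 9.68 in cancers and from 9.17 through 9.45 to 9.87 in normal tissue. Its fall of 0.31 (-0.58 to -0.05, adjusted p = 0.0398) was lost once slide (-0.31, 0.0591) or scan day (-0.23, 0.253) entered the fit as a block and with 75th-percentile scaling of processed signal (-0.33, 0.0891). It was also lost without any of 10 single samples in turn, with adjusted p up to 0.119.

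**Figure D2:**
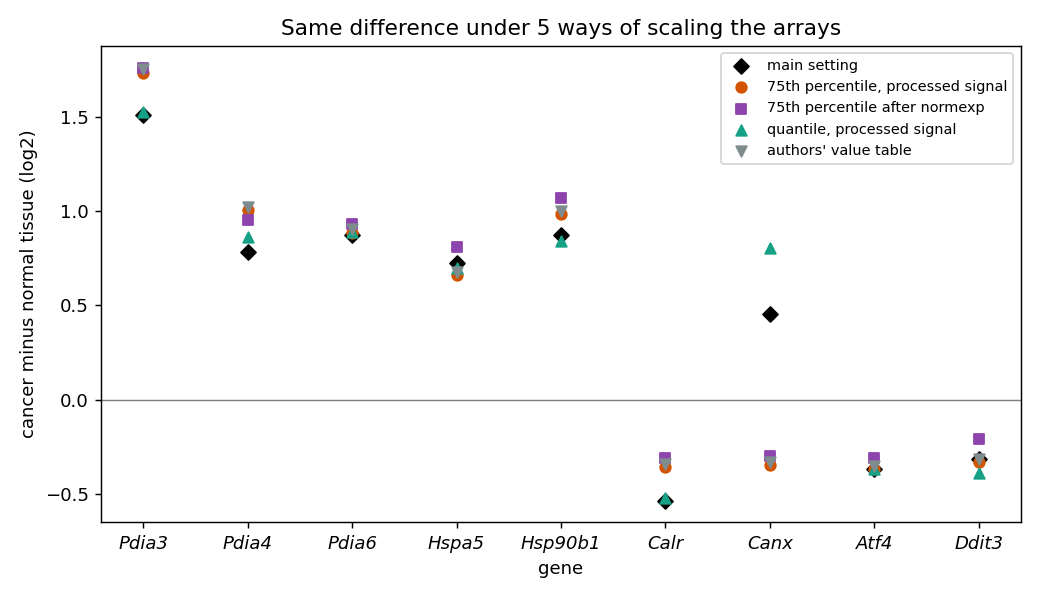
Cancer minus normal tissue (log2) for each of the 9 measured genes under 5 ways of scaling the arrays. Pdia3, Pdia4, Pdia6, Hspa5 and the brighter Hsp90b1 probe stay above 0 and Calr, Atf4 and Ddit3 below 0, whereas Canx lies at 0.46 in the main setting and at -0.34, -0.30 and -0.33 under the other scalings that use the 75th percentile or the authors' table.

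The scalings also shift all genes by different amounts. The median difference of all genes was -1.51 with the 75th percentile of processed signal, -0.80 with the 75th percentile after normexp and -0.19 in the authors' table. Against that shift, the median of the 9 genes was 0.66, 0.81 and 0.68. The calls for Pdia3, Pdia4, Pdia6, Hspa5 and Calr held under all 12 fitted alternatives and without each of the 20 samples in turn.

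Within each obesity group the folding enzymes were again higher in cancer. In OP rats 5 of 9 genes rose and 2 fell (21.2% and 23.4% of all genes), in OR rats 5 rose and 1 fell (13.9% and 14.5%), and in LC rats 5 rose and 1 fell (19.9% and 23.7%). The 5 that rose in all 3 groups were Pdia3, Pdia4, Pdia6, Hspa5 and Hsp90b1, and 10.5% of all genes rose in all 3. Pdia3 rose by 1.06 in OP (adjusted p = 0.000251), 1.78 in OR (7.18e-05) and 1.68 in LC (1.80e-05). Pdia6 rose by 0.63 (0.000565), 1.18 (7.33e-05) and 0.80 (0.000306). Pdia4 rose by 0.45 (0.0297), 1.01 (0.00198) and 0.90 (0.00114). Hspa5 rose by 0.45 (0.038), 0.93 (0.00518) and 0.79 (0.00422). Hsp90b1, by its brighter probe, rose by 0.66, 1.04 and 0.92. For Pdia3, Pdia6, Hspa5 and Hsp90b1 the smallest of the 3 differences was in OP rats. It was so for Pdia4 too, which restates the low OP cancer level for which that gene was chosen.

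The OP calls of Pdia4 and Hspa5 were the least firm, and that of Pdia6 ended in the fit that blocked on slide (0.37, 0.0512). In that fit the OP difference of Pdia4 was 0.40 (adjusted p = 0.173). Without OP normal tissue 1, the lowest normal value, it was 0.25 (0.232). Leaving out OP cancer 1, 4 or 5 also ended the call. For Hspa5 the call ended without OP cancer 1, 2 or 6 or without OP normal tissue 1 or 3, with adjusted p up to 0.148. In OR rats Hspa5 missed the threshold without OR normal tissue 2 (0.86, 0.0662), which leaves 1 OR normal tissue whose spread is taken from the other groups. In LC rats Pdia4 stood at 0.53 (0.102) when LC normal tissues 1 and 3 were left out together.

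Calr fell by 0.71 in OP rats (adjusted p = 0.00145), and was at -0.52 in OR (0.0565) and -0.37 in LC (0.0931). Without LC normal tissue 3 its LC difference was -0.60 (0.0047), and the OR difference passed without LC normal tissue 1 or 3 (0.0222 and 0.0172). Atf4 fell by 0.43 in OP (0.0112) and 0.45 in OR (0.0456), and stood at -0.22 in LC (0.239). Both OP calls ended with 75th-percentile scaling of processed signal (0.0612 for Calr and 0.375 for Atf4), and the OR call of Atf4 ended without any of 13 single samples. Ddit3 fell by 0.59 in LC rats (0.0363), and stood at -0.41 in OP (0.0827; 0.017 without OP cancer 2) and 0.08 in OR (0.849). That LC call ended without LC cancer 1 or 2 or LC normal tissue 1 or 2. Canx passed in none of the 3 groups (0.32, 0.52 and 0.52, with adjusted p of 0.206, 0.146 and 0.0779), though its LC difference passed without OP normal tissue 2 (0.0455) or LC normal tissue 3 (0.76, 0.0145) and with scan day as a block (0.71, 0.0322). Its OP difference passed when slide was the block (0.73, 0.0338).

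**Figure D3:**
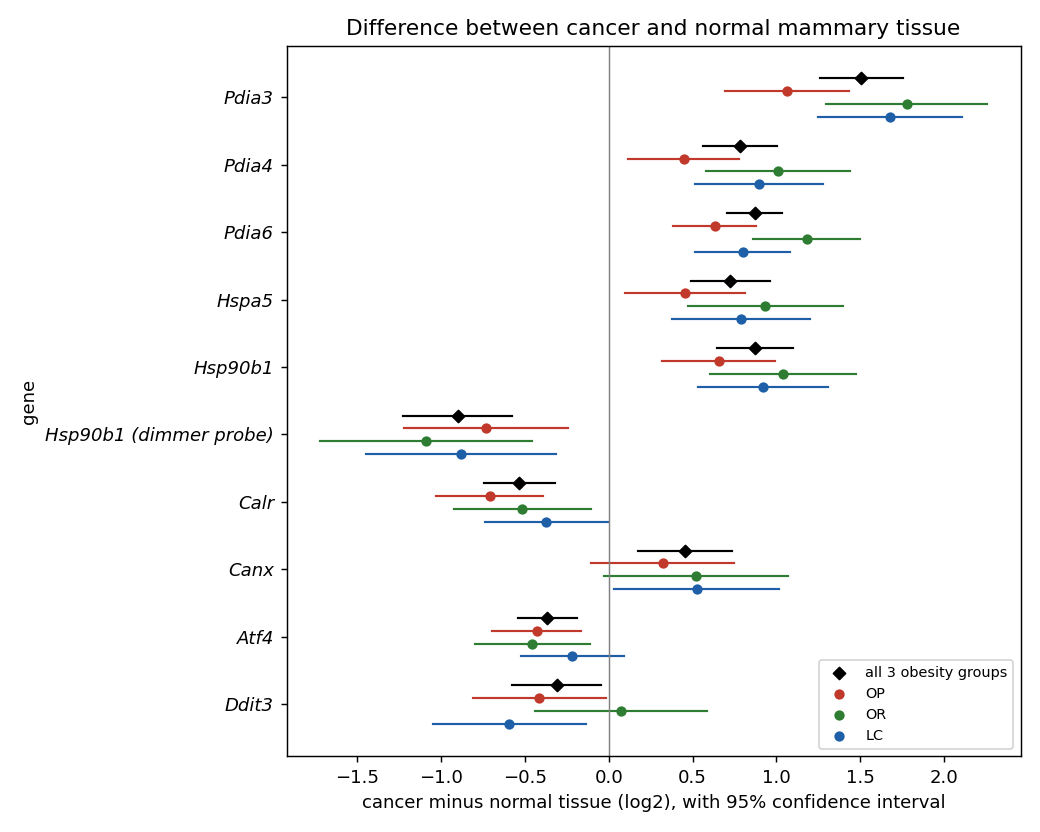
Cancer minus normal tissue (log2) with 95% confidence intervals for the 9 measured genes and for the dimmer Hsp90b1 probe, over all obesity groups (diamonds) and within OP, OR and LC rats (circles). The OP difference is the smallest of the 3 for Pdia3 (1.06), Pdia6, Hspa5 and the brighter Hsp90b1 probe, and for Pdia4, where its low OP cancer level was the reason for the choice, and the probes of Hsp90b1 lie on opposite sides of 0.

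Whether cancer and normal tissue differed less in OP rats was tested over all genes as an interaction. It set the OP difference against the average of those in OR and LC rats. In limma 0 of 36043 genes passed (0%), and 1547 (4.29%) had an unadjusted p under 0.05. Pdia3 stood at -0.66 and Pdia6 at -0.36. Hspa5 stood at -0.41 and Hsp90b1 at -0.32. Pdia4 stood at -0.51. The members are described here with no test of each, since the OP cancers in view when the set was put forward enter this contrast too. On the main scale all 9 values were negative, but Atf4 turned to 0.13 with 75th-percentile scaling of processed signal, and with slide as a block Hsp90b1, Canx, Atf4 and Ddit3 stood at 0.12, 0.18, 0.24 and 0.33. Under that scaling Pdia6 was at -0.07 and Hspa5 at -0.08, while Pdia3 was at -0.61.

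Among the cancers, Pdia4, Pdia6 and Hspa5 had lower means in OP than in other rats, described here with no test. Pdia4 averaged 9.86 ± 0.21 (SD, n = 6) in OP cancers, 10.46 ± 0.08 (n = 3) in OR and 10.35 ± 0.14 (n = 3) in LC cancers, a difference of -0.55 from the mean of the other groups. The highest OP cancer (10.08) was below the lowest other cancer (10.21), and 0.413% of all genes were lower without overlap in this way. The gap was -0.51 within scan day 1 (4 OP cancers against 4 others), -0.62 within scan day 2 (2 against 2), and -0.36 on slide 1, the only slide to hold an OP cancer and another cancer. OP cancers 3 to 6 shared slide 4, which held nothing else, so for them slide and group cannot be told apart. Across scalings the difference ran from -0.52 to -0.60.

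Pdia6 averaged 14.65 ± 0.22 in OP cancers against 15.09 ± 0.08 in OR and 14.93 ± 0.18 in LC cancers (-0.36). Hspa5 averaged 14.54 ± 0.20 against 14.97 ± 0.08 and 14.86 ± 0.40 (-0.38). For both genes every OP cancer was below every OR cancer (3.15% of all genes) and overlapped the LC cancers. With 75th-percentile scaling of processed signal these differences were -0.17 and -0.19. Within scan days 1 and 2 Pdia6 differed by -0.23 and -0.61, and Hspa5 by -0.44 and -0.28. Ddit3 differed by -0.37, but by -0.67 within scan day 1 and by 0.24 within scan day 2. Pdia3 differed by -0.24, or by -0.11 without OP cancer 2, its lowest value. Hsp90b1 differed by -0.08, Calr by 0.01, Canx by 0.15 and Atf4 by 0.02. OP and other cancers overlapped for each of these. With slide as a block, Pdia4 stood at -0.40, Pdia6 at -0.71, Hsp90b1 at 0.76 and Canx at 0.37. That fit rests on OP cancer 1 against LC cancer 1 on slide 1 and on OR against LC cancers on slide 5. Its values are therefore not separate from the slide 1 differences (-0.36 for Pdia4). Hsp90b1 differed by -0.29 within scan day 1 and by 0.34 within scan day 2. The dimmer Hsp90b1 probe differed by 0.56. Luminal marker means overlapped (12.09 to 12.88 in OP cancers, 12.59 to 12.93 in the others), OP cancers 6, 2 and 1 being the lowest of the 12. OP cancers 6 and 2 also had the lowest Pdia4 levels. OP cancers 3, 4 and 5 had luminal means within the range of the others (12.878, 12.765 and 12.743), and their Pdia4 levels (9.81, 10.08 and 10.04) were still below those of the other cancers. A relation of Pdia4 to luminal markers was not tested. OP cancer 6, the lowest for Pdia4, stood above all other cancers in list means of macrophages (13.47, others 10.87 to 12.46), fibroblasts (13.69, others 11.26 to 12.78), B and plasma cells (10.55, others 8.94 to 9.55) and T and NK cells (9.58, others 7.60 to 8.87). Without it the Pdia4 difference was -0.49.

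The remaining comparisons were not part of how the genes were chosen. Between OR and LC cancers 0 of 36043 genes passed in limma (0%, and 4.19% at an unadjusted p under 0.05). The 9 differences ran from -0.10 (Calr, -0.40 to 0.19) to 0.26 (Ddit3, -0.27 to 0.79). Pdia4 differed by 0.11 (-0.19 to 0.41) and Hspa5 by 0.11 (-0.30 to 0.52). For Pdia3 the interval was -0.39 to 0.63.

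Within normal tissue, OP against the mean of OR and LC, again 0 genes passed (0%, and 2.18% at an unadjusted p under 0.05). Pdia4 stood at -0.04 (-0.52 to 0.44), Pdia6 at 0.00 (-0.21 to 0.21) and Hspa5 at 0.02 (-0.39 to 0.44). Pdia3 read 11.36, 11.23 and 11.38 in OP normal tissues, 10.99 and 10.84 in OR, and 10.79, 10.79 and 11.09 in LC, so all OP tissues were above all others (0.591% of all genes). That difference was 0.42 (0.18 to 0.66, unadjusted p = 0.00437) and did not pass adjustment (adjusted p = 1). Pdia3 therefore had its lowest cancer mean and its highest normal mean in OP rats. Between OP and LC normal tissue (0%, 8.81% unadjusted) and between OR and LC normal tissue (0%, 8.98% unadjusted), Ddit3 was at -0.42 and -0.41 and Atf4 at 0.26 and 0.30, none past adjustment (adjusted p from 0.431 to 0.5005). Between OP and OR normal tissue (0%, 0.613% unadjusted) the largest difference of the 9 was that of Pdia3 (0.41).

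The order of the 6 group means shows where groups separate. For Pdia4 it was OR cancer (10.46), LC cancer (10.35), OP cancer (9.86), LC normal (9.46), OR normal (9.46) and OP normal (9.41). Of neighbouring groups only LC and OP cancers did not overlap (1.59% of all genes were lower without overlap in OP than in LC cancers). That gap belongs to the low OP cancer level for which Pdia4 was chosen. For Pdia3 it was OR cancer (12.69), LC cancer (12.57), OP cancer (12.39), OP normal (11.32), OR normal (10.91) and LC normal (10.89). OP cancer and OP normal did not overlap (20.2% of all genes were higher without overlap in OP cancer). OP normal and OR normal did not overlap either (4.64% of all genes were higher without overlap in OP normal). For Hspa5 it was OR cancer (14.97), LC cancer (14.86), OP cancer (14.54), OP normal (14.08), LC normal (14.07) and OR normal (14.04), and every neighbouring pair overlapped.

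Over the 12 cancers, Hspa5 levels were set against each of the other 8 measured genes. The largest correlation was with Ddit3 (Pearson r = 0.72, permutation p = 0.0114, adjusted over 8 relations 0.0912; Spearman rho = 0.73, permutation p = 0.00965, adjusted 0.0772). For Pdia4 r was 0.65 and rho 0.66, given with no test because the gap between OP and other cancers by which it was chosen enters them. Pdia6 followed (r = 0.54, permutation p = 0.0738, adjusted 0.197; rho = 0.61, adjusted 0.0984). On the main scale none of the 7 genes other than Pdia4 passed adjustment. Without OP cancers 3 and 5, the samples farthest from the median of Hspa5, r was 0.60 for Ddit3, 0.64 for Pdia4 and 0.46 for Pdia6. With values centred on obesity group, r was 0.56 for Ddit3, 0.14 for Pdia4 and 0.06 for Pdia6, so the relations with Pdia4 and Pdia6 were near 0 within groups. With values centred on slide, r was 0.71 for Ddit3, 0.37 for Pdia4 and 0.77 for Pdia6 (permutation p adjusted over 8 relations 0.0892 for Ddit3 and 0.0194 for Pdia6). Slides 2 and 3 held 1 cancer each, so the centred values of those cancers were 0. The permutation did not keep to slides, so no conclusion is drawn from these p-values. Within the 8 cancers of scan day 1, r was 0.89, 0.71 and 0.91 in the same order (exact permutation p adjusted over 8 relations 0.0452 for Ddit3 and 0.0216 for Pdia6). These were OP cancers 3 to 6 on slide 4 and 4 OR and LC cancers on slide 5. The gap between these groups and slides enters r. The permutation treats the 8 arrays as exchangeable, so no conclusion is drawn from its p-values. Scan day 2 held 4 cancers, too few for a value. With 75th-percentile scaling of processed signal, r over the 12 cancers was 0.77 for Ddit3, 0.48 for Pdia4 and 0.34 for Pdia6. There Ddit3 passed (permutation p = 0.00446, adjusted over 8 relations 0.0357). That permutation also treats the arrays as exchangeable, so no conclusion is drawn from its p-value. On the main scale the remaining r were 0.43 for Hsp90b1, 0.42 for Calr, 0.28 for Atf4, 0.12 for Pdia3 and 0.07 for Canx. With values centred on obesity group, they were 0.42 for Hsp90b1, 0.67 for Calr, 0.43 for Atf4, -0.26 for Pdia3 and 0.46 for Canx. Calr then had the largest r of the 8 relations.

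Genes with a symbol, 8662 in all, were ranked by how closely their levels followed those of Pdia4 over the 12 cancers. The highest were Sytl5 (r = 0.94), Eif2ak3 (0.91), Cog6 (0.90), Unc13b (0.89) and Rraga (0.89). Each had a lower mean in OP cancers than in the others. That is the gap for which Pdia4 was chosen, so it enters these r, and no r within obesity groups was computed for these genes. Eif2ak3, which encodes PERK, ran from 7.47 to 7.90 in OP cancers (mean 7.64 ± 0.15, n = 6) and from 7.85 to 8.18 in the others, overlapping only through OP cancer 5. For Hspa5 the highest were Insl3 (0.92), Slc4a5 (0.88), Or51b4b (0.87), Armcx3 (0.86) and Ccdc181 (0.83). Or51b4b was well above background in none of the 12 cancers and Slc4a5 in 1, so these match at the level of background. The values are descriptions over 12 samples that share slides and obesity groups.

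**Figure D4:**
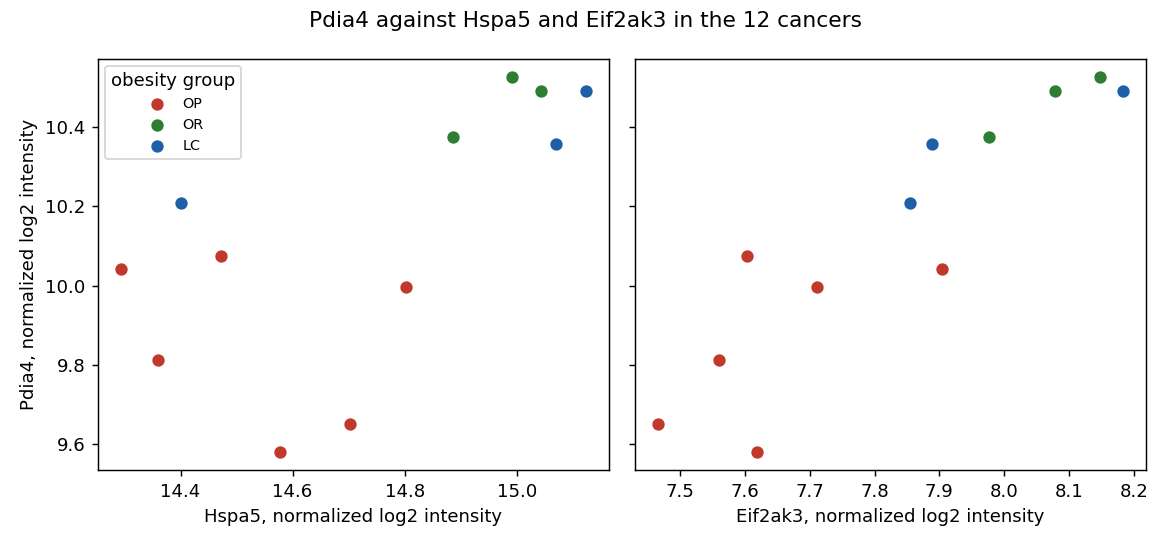
Pdia4 against Hspa5 (left) and against Eif2ak3 (right) in the 12 cancers, on normalized log2 intensity, coloured by obesity group. The 6 OP cancers lie lowest on the Pdia4 axis in both panels, and Pearson r is 0.65 with Hspa5 and 0.91 with Eif2ak3. The gap between OP and other cancers for which Pdia4 was chosen enters both values.

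Genes of the same pathway outside the set were read from fixed lists, whose counts stand against 29.0% of all genes that rose and 33.5% that fell. Of 21 measured ER folding and disulfide enzymes, 11 rose in cancer, 1 fell and 9 did not pass (median difference 0.39, all genes -0.03). Those with the smallest p were Uggt1, the glycoprotein folding sensor (0.84, adjusted p = 6.66e-09), Dnajb11, a co-chaperone of Hspa5 (1.32, 7.41e-08), Erp29 (0.96, 3.04e-07) and the thioredoxin-related Tmx2 (1.32, 2.37e-06). The Uggt1 value was 0.38 with 75th-percentile scaling of processed signal and -0.09 after normexp. Of the genes of this list picked out above for ERSE, Creld2 rose (1.46, adjusted p = 6.54e-06), Dnajc3 stood at -0.03 (0.819) and Ero1b was not among the genes tested.

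Of 14 sensors and transcription factors of the response, 8 rose and 4 fell (median 0.33). Wfs1, an ER membrane protein that restrains Atf6 (1.22, adjusted p = 2.20e-08), Eif2ak3 (0.84, 1.54e-07) and Atf6b, a relative of Atf6 (1.14, 2.48e-06), rose, whereas Creb3l3, a membrane-bound transcription factor (-0.80, 2.40e-06), fell. This list's median went to 0.01 and -0.03 with the 75th-percentile scalings, and the Eif2ak3 difference to 0.14 and 0.01, so no direction is given for the list. Of 21 targets of Atf4 and Ddit3, 9 rose and 5 fell, against 29.0% and 33.5% of all genes (median 0.10, -0.01 and -0.09 with those scalings). The amino acid carrier subunit Slc7a5 (1.24, 6.4e-06), the asparaginyl- and tryptophanyl-tRNA synthetases Nars1 (1.204, 3.33e-05) and Wars1 (1.01) rose. Phgdh, the first enzyme of serine synthesis, fell by 1.96 (adjusted p = 9.19e-06).

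Of 14 genes of ER-associated degradation, 7 rose and 2 fell, against 29.0% and 33.5% of all genes (median 0.15), with Vcp, the ATPase that extracts proteins (0.85, adjusted p = 4.53e-08), Ube2j2 (1.28), Ubxn4 (0.57) and Edem2 (0.99) named by smallest p. Of 15 genes of translocation and N-glycosylation, 6 rose and 4 fell, against 29.0% and 33.5% of all genes (median 0.18, but -0.002 with 75th-percentile scaling of processed signal). Ssr3, a subunit of the translocon-associated complex, fell by 1.48 and Sec61a1, the channel subunit, fell by 0.73, while the glucosidase Mogs (0.68) and the oligosaccharyltransferase subunit Ddost (0.69) rose.

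Of 16 genes of ER to Golgi traffic, 10 rose and 0 fell by limma (median 0.43), although 3 fell within LC rats, and the coat and cargo genes Copg1 (0.74), Mcfd2 (1.23), Tmed10 (0.66) and Tmed2 (1.16) had the smallest p. Of 24 chaperones of the cytosol and mitochondria, 20 rose and 3 fell (median 0.72), led by the chaperonin subunit Cct6a (2.10), Stip1 (1.23), Dnaja1 (1.13) and Hsp90aa1 (1.43). The median of these cytosolic genes was close to that of the 9 ER genes (0.73), and under the 75th-percentile scalings it was 0.72 and 0.78. Adipocyte, luminal and proliferation markers moved with tissue beside all of these lists, as given above.

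**Figure D5:**
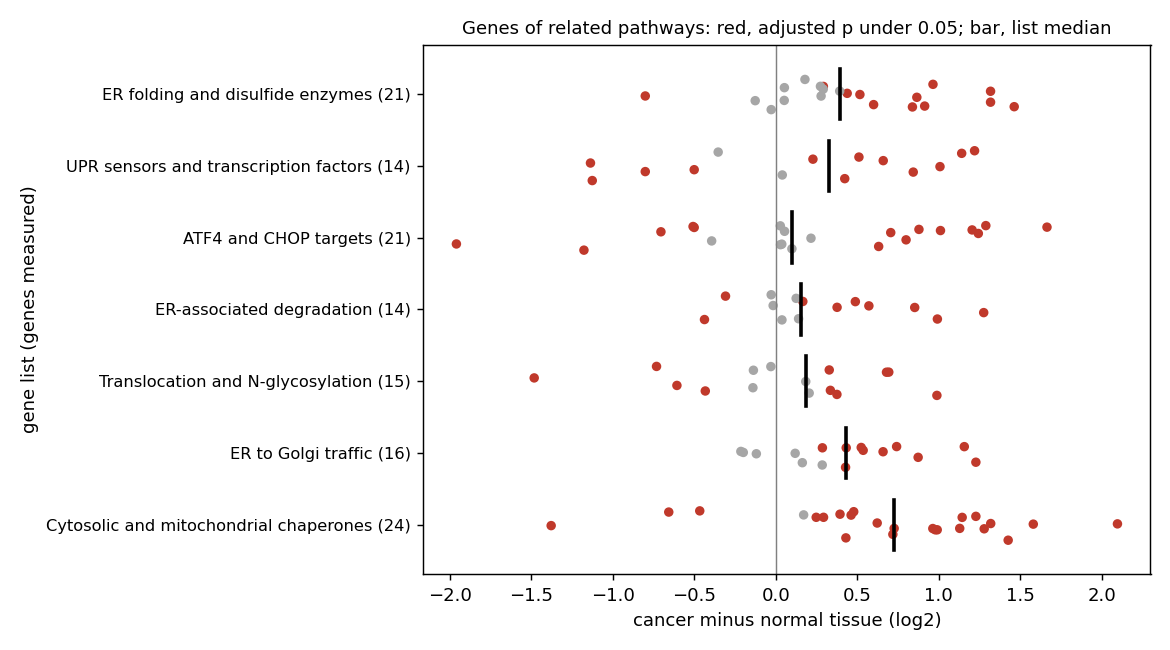
Cancer minus normal tissue (log2) for each measured gene of 7 related lists, with the number measured in brackets; points are genes, red marks an adjusted p under 0.05 in limma, and black bars are list medians. Medians run from 0.10 (ATF4 and CHOP targets) to 0.72 (cytosolic and mitochondrial chaperones), and ER to Golgi traffic is the list with no called fall.

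In the interaction, between OR and LC cancers and between normal tissues, no gene of these 7 lists passed adjustment. Within the obesity groups the folding list had 6 rises and 1 fall in OP, 10 and 0 in OR, and 8 and 1 in LC, out of 21, where 21.2%, 13.9% and 19.9% of all genes rose and 23.4%, 14.5% and 23.7% fell. The cytosolic chaperones had 13 and 2, 16 and 1, and 14 and 3, out of 24. These counts were not tested against each other.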

How the data were processed

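Cy3-labelled RNA of 20 samples was hybridised to one-colour Agilent rat arrays, 1 sample per array. The deposited scanner files hold median spot and background intensity, processed-signal intensity and quality marks of 0 or 1 (other values), made with Agilent Feature Extraction 9.5.1.1 per the file headers and 10.7.3.1 per the submitters' processing notes. The authors' deposited value table is on a log2 scale and was used as an alternative. Its differences between arrays lay nearest to processed signal scaled by the 75th percentile, and its gene centring is not stated in the sources used here.

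Median intensity was background-corrected with normexp (offset 50) and quantile-normalized on the log2 scale (limma 3.58.1, R 4.3.3). Mean spot intensity was not used here. Spots of a probe were averaged. Probes with an outlier mark (115) or below a share of 0.5 of well-above-background arrays in every group (825) were dropped. The brightest probe stood for a gene, leaving 36043 entries, called genes here. Probes without a symbol were grouped by the name in the scanner files, so a gene can enter more than once. Shares of all genes are over these entries, of which 8662 had a symbol. Of 13948 accessions 8991 matched a RefSeq symbol. Groups were compared with limma's moderated test and Benjamini-Hochberg adjustment over all genes, at 0.05, after tests on simulated data. There a change of 0.5 log2 was recovered for 27 of 50 genes between cancer and normal tissue. Between OR and LC cancers it was recovered for 10 of 50, and between OP and other normal tissue for 1 of 50. In these last comparisons a lack of calls is therefore no sign of equal levels. Correlations used 100000 permutations, or exact enumeration for 8 samples, with Python 3.11.15. The members and gene lists were chosen with earlier results of these data known. Named genes are all members, up to 4 genes of each pathway list with the smallest p in cancer against normal, and the 5 genes most like Hspa5 and Pdia4. The number of arrays limits the precision. Alternatives covered scaling, background, filters, probe choice, slide, scan day, replicate number and single samples.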

Additional observations from a re-analysis of the deposited data

How the results depend on the processing

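Of 2339 values of members under alternatives, 2214 kept direction and side of the threshold (61 of these changed sign with no call on either side), 78 lost the call, 11 gained one, 12 reversed and 24 with no test moved. Reversed were Pdia4 within slide 2 (-0.03), Canx with 75th-percentile scaling of processed signal (-0.344), the same after normexp (-0.297) and the authors' table (-0.327), and Ddit3 in OP against other cancers within scan day 2 (0.236). Hsp90b1 reversed with the mean of its probes (-0.015 over all, -0.038 in OP, -0.026 in OR) and with the dimmer probe (-0.902, and -0.733, -1.09 and -0.883 in OP, OR and LC). The cause was not tested. Members lower in cancer (3) were 1 after normexp with 75th-percentile scaling and 1 in the authors' table, which called 12456 genes over fewer tested. In OP rats, members higher (5) were 3 with quantile-normalized processed signal and 3 with the replicate block, and 3 to 5 without single samples. Members lower in OP (2) were 0 with both 75th-percentile scalings and the authors' table, 1 with quantile-normalized processed signal, slide block or replicate block. Members lower in OR (1) and in LC (1) were 0 with both 75th-percentile scalings, the authors' table, the scan day block and array weights, 2 with the slide block or the dimmer probe, and 0 to 2 without single samples. Quantile-normalized processed signal gave 0 in OR, and leaving out LC normal tissues 1 and 3 together gave 2 in OR and 0 in LC. Genes called were 24895 and 25685 in OP with the 75th-percentile scalings (8753 in the authors' table, 16062 in the main setting), 23416 and 24214 in OR (3587 to 12375 without single samples, 10244 in the main setting), and 25197 in LC with processed signal (9342 in the authors' table, 15701 in the main setting). For the interaction, 3 genes were called with the slide block, 1 with the replicate block, 24 without LC normal tissues 1 and 3, and 0 to 1 without single samples. Between OR and LC cancers 1 gene was called with quantile-normalized processed signal, 1 with the slide block, and 0 to 1 without single samples. Relations with Hspa5 past the threshold (0) were 1 with 75th-percentile scaling of processed signal (Ddit3), 1 centred on slide (Pdia6) and 2 in scan day 1 (Ddit3 and Pdia6). For all of these the limits of the permutation given above apply. Same-numbered samples did not deviate together (correlation of deviations -0.202 to 0.072), and the main fit used no pairing. These correlations cannot show whether a cancer and a normal tissue came from the same rat. The dimmer probe, group centring, scan day 1 alone, values within scan days and the omission of LC normal tissues 1 and 3 were chosen after seeing the data.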
